A study of Mus musculus with 16 samples.

Results

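The genes described here are those of DNA replication and S phase, the stage of the cell cycle in which the genome is copied. They were chosen by gene symbol and cover 10 roles from the loading of the replicative helicase to the ligation of the finished strands and the supply of nucleotides. All 44 listed symbols were found among the 31053 rows of the gene table. All 44 also passed the filter on low values, which asked that 4 or more of the 16 samples reach a normalized count of 10 and left 10767 genes for testing.

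mRNA was sequenced in C2C12, a mouse skeletal myoblast line that fuses into myotubes in culture. There were 4 groups of 4 samples. WT myoblasts and WT myotubes came from cells that carry Fam134b, the gene of a receptor for autophagy of the endoplasmic reticulum (ER-phagy). Fam134b KO myoblasts and Fam134b KO myotubes, called KO below, came from cells in which Fam134b had been targeted with a lentiviral CRISPR-Cas9 vector that carries a pair of guides, followed by drug selection. The methods do not say whether the KO cells were a single clone or a pool, nor whether WT cells carried an empty vector and passed the same selection. All 4 groups were grown in DMEM with 10% FBS, and myotubes formed spontaneously once the cells became confluent. The labels give no day for either stage, and another field of the labels gives the genotype as unknown. The labels call the samples of a group biological replicates without saying whether they came from separate cultures, so the p-values measure the spread between these samples.

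As background, replication starts from origins that are licensed before S phase. The origin recognition complex with CDC6 and CDT1 loads the ring of MCM proteins onto DNA, and geminin blocks CDT1 afterwards. CDC45 and the GINS complex turn the loaded ring into an active helicase. The primase and polymerases then copy both strands with the sliding clamp PCNA, which the RFC complex loads, while RPA covers single-stranded DNA. Most of these genes are known targets of the E2F transcription factors, which are restrained by the retinoblastoma proteins when myoblasts leave the cell cycle to form myotubes.

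Promoters of the genes were read from RefSeq (build GRCm38.p6) as windows from 250 bases before to 50 bases after the annotated start, and 36 of the 44 genes had an entry. The remaining genes are Gins1, Pole, Gins2, Prim2, Rfc2, Gins4, Mcm4 and Gmnn. Of the 36 genes, 7 had several annotated starts, which gave 45 windows in all. A gene was counted as having a word if any of its windows held it. Both strands were searched for the E2F words TTTCCCGC, TTTGCCGC, TTTCGCGC and TTTGGCGC and for the CCAAT box, and a match on both strands of the same stretch was counted at each position. An E2F word was found in the promoters of 16 of these 36 genes (44.4%), against 2.605% of the 27025 genes of the promoter table. CCAAT was found for 24 genes (66.7%), against 41.06% of all genes, and both were found for 11 genes (30.6%), against 1.262%. A match describes these letters in these windows and was not tested for binding. The 5 promoters below were chosen to show where such words stand in genes that changed most and least. The E2F words are in capitals, and each sequence runs 5' to 3' on the strand of the gene. Where a gene had several windows, a single one with an E2F word is shown. Cdc6, Uhrf1 and Mcm7 had the most negative values for WT myotubes against WT myoblasts among genes with an E2F word, and Dnmt1 had the smallest absolute value. E2f2, which encodes an E2F factor itself, was added after its values had been seen. The Cdc6 window lies at chr11:98907901-98908200 on the plus strand, with its word on the opposite strand at position -138 from the start. The Uhrf1 window lies at chr17:56304063-56304362 on the plus strand, with its word at position -185. The Mcm7 window, at chr5:138171834-138172133 on the minus strand, holds a word at -165 on the opposite strand and another at 17 bases into the transcript. The Dnmt1 window, at chr9:20952574-20952873 on the minus strand, holds a word at -219 on the opposite strand and another at 34 bases into the transcript. The E2f2 window, at chr4:136172024-136172323 on the plus strand, holds a word at 40 bases into the transcript.
Cdc6: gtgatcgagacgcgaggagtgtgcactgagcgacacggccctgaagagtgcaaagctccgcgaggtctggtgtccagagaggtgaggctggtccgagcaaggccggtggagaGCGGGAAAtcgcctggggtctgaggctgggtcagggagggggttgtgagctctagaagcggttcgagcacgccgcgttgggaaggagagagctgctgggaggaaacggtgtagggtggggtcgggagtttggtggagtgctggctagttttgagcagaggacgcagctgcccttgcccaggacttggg
Uhrf1: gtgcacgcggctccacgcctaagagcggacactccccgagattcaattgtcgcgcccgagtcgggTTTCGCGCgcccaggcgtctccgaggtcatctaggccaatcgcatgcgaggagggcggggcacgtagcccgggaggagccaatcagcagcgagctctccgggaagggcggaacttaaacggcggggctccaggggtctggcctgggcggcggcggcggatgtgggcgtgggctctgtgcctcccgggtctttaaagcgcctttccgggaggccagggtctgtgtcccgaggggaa
Mcm7: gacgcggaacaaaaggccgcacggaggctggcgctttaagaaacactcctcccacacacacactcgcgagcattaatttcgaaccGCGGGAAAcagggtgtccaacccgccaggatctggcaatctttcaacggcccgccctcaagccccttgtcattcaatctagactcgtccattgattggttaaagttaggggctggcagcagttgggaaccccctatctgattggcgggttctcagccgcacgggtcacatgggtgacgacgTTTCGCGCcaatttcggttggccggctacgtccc
Dnmt1: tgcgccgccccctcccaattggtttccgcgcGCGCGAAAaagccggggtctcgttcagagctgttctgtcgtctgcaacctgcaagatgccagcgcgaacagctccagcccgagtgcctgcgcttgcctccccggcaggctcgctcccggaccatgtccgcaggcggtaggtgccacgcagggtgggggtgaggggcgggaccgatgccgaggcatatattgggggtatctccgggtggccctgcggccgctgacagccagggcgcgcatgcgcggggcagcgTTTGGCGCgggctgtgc
E2f2: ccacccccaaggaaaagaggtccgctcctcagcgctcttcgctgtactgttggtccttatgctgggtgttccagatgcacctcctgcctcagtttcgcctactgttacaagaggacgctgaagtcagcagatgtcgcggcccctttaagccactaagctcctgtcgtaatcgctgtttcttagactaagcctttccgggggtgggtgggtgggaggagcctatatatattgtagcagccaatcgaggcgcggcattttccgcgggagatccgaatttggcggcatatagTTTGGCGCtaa

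Among the 16 genes with an E2F word, 8 were called lower in WT myotubes than in WT myoblasts, with a median log2 fold change of -0.80, and among the 20 genes with an entry but no such word 15 were called lower, with a median of -0.92. In KO cells the counts were 13 of 16 and 19 of 20 genes, with medians of -1.75 and -1.34. Between KO and WT myotubes, 10 of 16 genes with a word and 7 of 20 without one were called lower, with medians of -0.97 and -0.73. In WT cells the genes without a word thus had the more negative median, and in KO cells those with a word. Among all genes tested, 9.16% were called lower in WT, 16.1% in KO and 13.7% between KO and WT myotubes. These counts and medians are descriptions without a test.

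The samples held 1484750 to 3287461 reads on genes. KO myotubes 2 and 4 were the shallowest, and the other 14 samples held at least 2686680 reads. A floor of 3 reads corresponds to a normalized count of 2.49 to 5.99 over the samples and covers counting error only. Fam134b stood at 149.7 to 250.8 normalized counts in WT myoblasts and at 23.4 to 35.6 in KO myoblasts, and at 146 to 287 in WT myotubes and 28.0 to 56.9 in KO myotubes, so that the genotypes did not overlap at either stage (exact permutation test, two-sided p = 0.0286 for each, the smallest that 4 against 4 samples allow). Myog, which encodes a factor of terminal muscle differentiation, had a mean of 114 in WT myoblasts, 1069 in WT myotubes and 766 in KO myotubes, and no read in any KO myoblast sample. Myod1, which encodes a determination factor of myoblasts, was at 236 to 375 in WT myoblasts and at 5.81 to 15.7 in KO myoblasts. KO myoblasts were thus near the floor for a defining marker of their labelled cell type. Des, another myoblast marker, was at 438 to 674 in WT and 101 to 170 in KO myoblasts, whereas Myf5, a further myoblast factor, was at 59.8 to 82.0 and 107 to 118. The myotube markers Acta1 (266 to 473 against 4.17 to 15.8), Tnnt3, Ckm, Actc1 and Myh3 were lower in every KO than in any WT myoblast sample. Of 12 markers of blood, endothelial, fat and epithelial cells, 7 to 9 had no read in a given group, and the largest count of any was 16 reads of Csf1r. The summed level of these markers lay between 4.00 and 23.2 normalized counts in KO myotubes, between 2.97 and 11.7 in WT myotubes, between 5.81 and 11.7 in KO myoblasts and between 7.72 and 12.0 in WT myoblasts. Single samples deviated from the mean of their group by 0.448 to 0.691 (root mean square over genes, log2 scale) in KO myotubes and by 0.260 to 0.440 elsewhere. WT myotubes 2 stood apart for the genes described here, as shown next.

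The 44 genes together made up less of the transcriptome in myotubes than in myoblasts, in both genotypes. Their summed normalized count was 11022 ± 504 in WT myoblasts and 6326 ± 1387 in WT myotubes (SD, n = 4), and 9893 ± 926 in KO myoblasts and 3662 ± 557 in KO myotubes (SD, n = 4). As a share of all normalized counts this was 0.405%, 0.232%, 0.377% and 0.134%. No myotube sample reached the sum of any myoblast sample of its genotype. WT myotubes 2 had a sum of 8385, whereas the other 3 WT myotube samples lay between 5360 and 5803, and it was the highest WT myotube sample for 26 of the 44 genes. In KO myoblasts, sample 2 was the highest for 23 genes, with a sum of 11226 against 9252 to 9822 in the other 3. Spread differed between groups too. The median SD of a gene over the samples of a group was 0.16 on the log2 scale in WT myoblasts, 0.41 in WT myotubes, 0.22 in KO myoblasts and 0.52 in KO myotubes. In KO myotubes 6 genes (Gins1, Mcm10, Orc1, Pole2, Fen1 and Uhrf1) had no read in 1 sample, each time in sample 2 or 4, the samples of low depth, and 16 genes had under 10 reads in at least 1 sample. Because these are bulk samples, fewer replicating cells and less RNA per cell cannot be told apart.

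**Figure D1:**
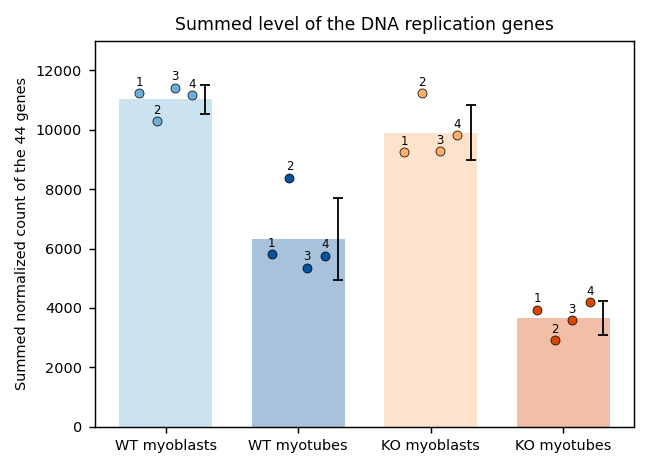
Summed normalized count of the 44 DNA replication genes (y axis) in each of 4 groups (x axis). Points are samples with their number, bars are group means and error bars are SD (n = 4); WT myotubes 2, at 8385, lies above the other 3 WT myotube samples, and the highest KO myotube sample lies at 4194.

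WT myotubes expressed most replication genes at a lower level than WT myoblasts. Myotubes formed after confluence and no day is given, so differentiation cannot be told apart from confluence or time in culture in this comparison. Of the 44 genes, 28 were called lower and 0 higher (limma with Benjamini-Hochberg adjustment over all 10767 genes, adjusted p under 0.05), whereas 9.16% of all genes tested were called lower and 13.8% higher. The other 16 genes were not called, and 5 of these had an unadjusted p under 0.05, all lower. No gene was higher at an unadjusted p under 0.05, and limma voom on recovered reads called 34 lower and 0 higher. With sample weights 40 were called lower and 1 higher, and with only the WT samples in the fit 35 were called lower. The median log2 fold change was -0.90 over the 44 genes and -0.01 over all genes tested. WT myotubes kept a median of 55.9% of the myoblast level, 12 genes stood under 50% and no gene under 25%. In 29 genes every WT myotube sample lay below every WT myoblast sample, a pattern seen in 12.0% of all genes, and none showed the opposite, which 16.1% of all genes did. Changes ranged from -1.48 for Rfc5, a subunit of the clamp loader, to 0.46 for E2f2, which was not called. The largest called changes by role were those of Rfc5 (-1.48 ± 0.31, log2 fold change ± SE), Orc6 (-1.30 ± 0.43), Cdc45 (-1.23 ± 0.28), Tk1 (-1.19 ± 0.29), Mcm7 (-1.15 ± 0.17), Lig1 (-1.15 ± 0.33), Rpa1 (-1.08 ± 0.23), E2f1 (-0.92 ± 0.29) and Prim1 (-0.81 ± 0.26). Of the 28 calls, 15 held in each of the 8 fits that left out 1 of the samples compared, and no gene changed sign. Between 17 (without WT myotubes 3) and 28 (without WT myotubes 2) genes were called lower in those fits, and 10 of the 28 had a log2 fold change of at least 1 in size.

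In KO cells the lower level in myotubes covered nearly the whole set. Of the 44 genes, 40 were called lower in KO myotubes than in KO myoblasts and 1, E2f2, was called higher (limma with Benjamini-Hochberg adjustment), against 16.1% lower and 17.3% higher among all genes tested. Dnmt1, Pole2 and Rpa3 were not called, with adjusted p of 0.0576, 0.0834 and 0.422. The median log2 fold change was -1.49 over the 44 genes and -0.02 over all genes. KO myotubes kept a median of 37.5% of the KO myoblast level, with 33 genes under 50% and 10 under 25%. In 39 genes the KO samples did not overlap with myotubes lower, against 13.1% of all genes, and E2f2 did not overlap in the opposite direction, as did 14.3% of all genes. The most negative changes over all samples were in Gins1, a subunit of the GINS complex (-3.95 ± 0.49, log2 fold change ± SE), Uhrf1, which brings the maintenance methyltransferase to replicated DNA (-3.18 ± 0.53), Fen1, the flap endonuclease of lagging-strand synthesis (-3.02 ± 0.57), and Mcm10, which helps start the helicase (-2.86 ± 0.65). This order rests partly on KO myotubes 2, where Gins1, Fen1 and Mcm10 had no read and Uhrf1 had 1. Without that sample Mcm10 changed by -1.85 and Fen1 by -2.11, both smaller in size than Mcm5 (-2.39), and without both shallow KO myotube samples Gins1 changed by -2.83, Mcm5 by -2.59, Uhrf1 by -1.90 and Fen1 by -1.70. All of these remained called. By role, the others were led by Mcm5 (-2.52 ± 0.21), Rfc4 (-2.49 ± 0.26), Pole (-2.47 ± 0.35), Orc1 (-1.92 ± 0.53), Tk1 (-1.92 ± 0.29) and Rpa2 (-1.20 ± 0.28). Of the 41 calls, 39 held in each fit with 1 sample left out. Orc6 was lost without KO myoblasts 1 or 4 or KO myotubes 4 (adjusted p up to 0.099) and Pola2 without KO myoblasts 1, 2 or 4 or KO myotubes 4 (up to 0.135). Without both shallow KO myotube samples, 40 genes were called lower and 1 higher, with a median of -1.41, and Pola2 was not called (adjusted p = 0.174).

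**Figure D2:**
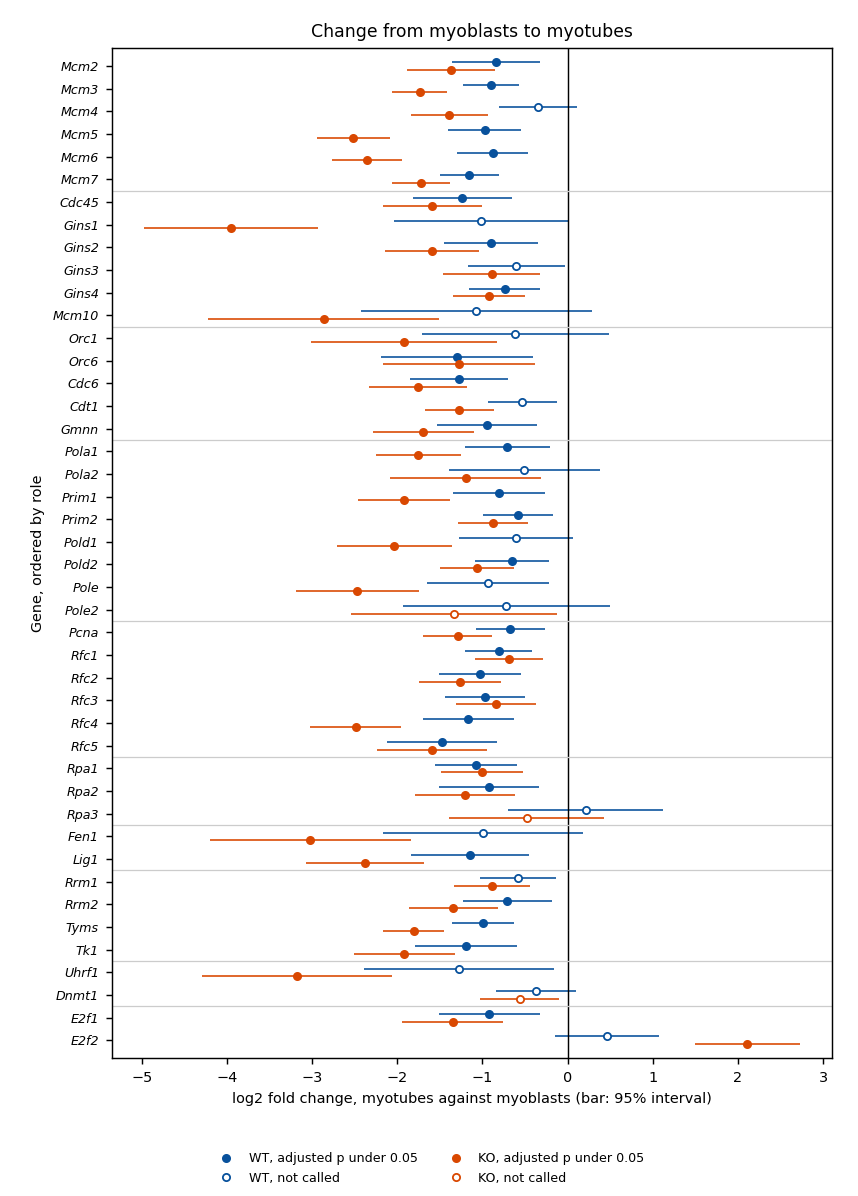
Log2 fold change from myoblasts to myotubes (x axis) of each of the 44 genes (y axis, ordered by role) in WT cells (blue) and KO cells (orange), with 95% intervals. Filled points passed an adjusted p under 0.05: 28 genes in WT, all lower, and 41 in KO, of which 40 were lower and E2f2 higher.

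Both genotypes shared much of this pattern. All 28 genes called lower in WT were also called lower in KO, 12 were called lower in KO alone, and 4 were called lower in neither (Rpa3, Dnmt1, Pole2 and E2f2). The change was more negative in KO than in WT for 39 of the 44 genes. The spread of each gene was estimated over all 4 groups together, so the WT calls also carry the wider spread of KO myotubes. A gene not called in WT can therefore still have separate WT samples, as Gins1 and Uhrf1 do. Being called in 1 genotype does not show a difference between genotypes, which was tested by the interaction of genotype and stage. For 5 genes the interaction was called with a more negative change in KO (1.48% of all genes tested) and for 1 gene, E2f2, with a more positive change (1.97% of all genes). The median interaction was -0.66 over the 44 genes and -0.04 over all genes on the log2 scale, and 18 of the 44 genes had an unadjusted p under 0.05. The 5 genes were Mcm3, Mcm5, Mcm6, Gins1 and Rfc4, 3 of them subunits of the MCM ring, 1 of the GINS complex and 1 of the clamp loader. In the remaining roles no gene was called, and the largest values were -2.02 ± 0.80 for Fen1 (log2 ± SE, adjusted p = 0.182), -1.90 ± 0.76 for Uhrf1 (0.185), -1.53 ± 0.49 for Pole (0.0936), -1.31 ± 0.74 for Orc1 (0.375), -0.82 ± 0.25 for Tyms (0.0744) and -0.69 ± 0.62 for Rpa3 (0.61). The interaction calls depended on single samples. Between 2 genes (without KO myoblasts 4) and 7 genes (without KO myotubes 2, 3 or 4) were called in the 16 fits with 1 sample left out, and 3 genes without WT myoblasts 1, 3 or 4. Mcm5 and Mcm6 held in all 16.

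**Figure D3:**
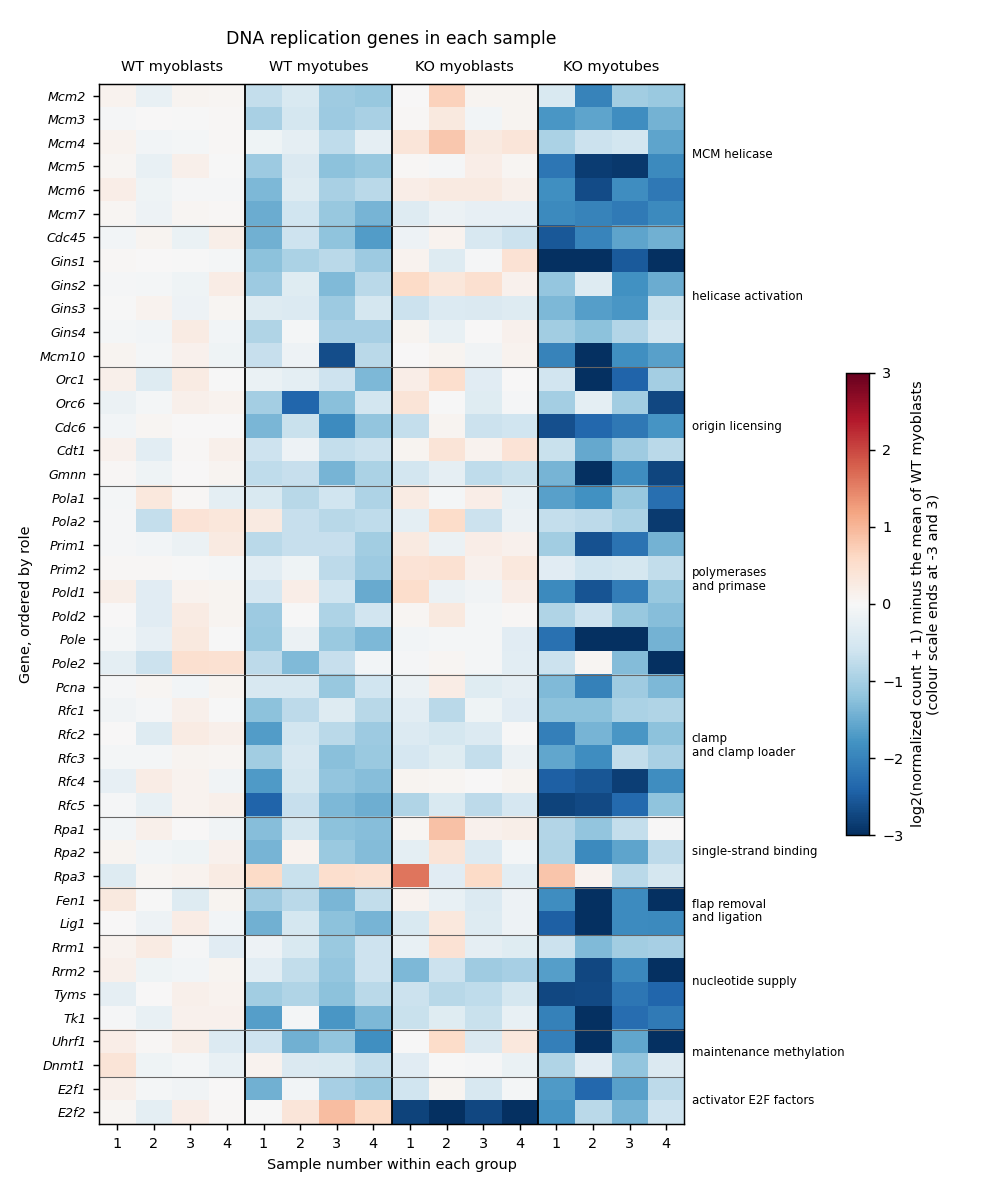
Level of the 44 genes (rows, grouped by role) in each of the 16 samples (columns), as log2(normalized count + 1) minus the mean of WT myoblasts. Blue is lower and red higher, and the scale ends at -3 and 3; KO myotubes carry the deepest blue, and the row of E2f2 is blue in KO myoblasts and pale or red in WT.

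Before differentiation few genes of the set were called between genotypes. Of the 44 genes, 3 were called lower in KO myoblasts than in WT myoblasts and 0 higher (limma with Benjamini-Hochberg adjustment), against 8.5% lower and 7.26% higher among all genes tested, and 5 of the 44, all lower in KO, had an unadjusted p under 0.05. The share of 6.82% called lower lay near that of all genes, and limma voom on recovered reads also called 3 lower and 0 higher. The median log2 fold change was -0.09 over the 44 genes and -0.01 over all genes. The 3 genes were E2f2 (-3.26 ± 0.29, log2 fold change ± SE, adjusted p = 3.5e-08), Rrm2, the regulated subunit of ribonucleotide reductase (-1.01 ± 0.25, adjusted p = 0.00704), and Tyms, thymidylate synthase (-0.69 ± 0.17, adjusted p = 0.00807). All 3 held in each fit with 1 sample left out. In 9 genes every KO sample lay below every WT sample, against 14.0% of all genes, and in 2 genes (Mcm4 and Prim2) every KO sample lay above, against 12.8% of all genes, so that the second count is below its background. In the roles without a call the largest values were -0.66 for Rfc5 (95% interval -1.31 to -0.01), -0.56 for Gmnn (-1.15 to 0.03), -0.47 for Gins3 (-1.04 to 0.10), 0.45 for Mcm4 (-0.0026 to 0.91), 0.38 for Rpa3 (-0.53 to 1.29), 0.32 for Prim2 (-0.09 to 0.73), -0.17 for Lig1 (-0.86 to 0.52) and -0.15 for Dnmt1 (-0.62 to 0.32). With only the 8 myoblast samples in the fit, 7 genes were called lower and 1 higher, and with sample weights 9 were called lower. Myod1 and Myog were near or at 0 in KO myoblasts, as given above, and their part in these differences was not tested.

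In myotubes the same comparison gave more calls. Of the 44 genes, 20 were called lower in KO myotubes than in WT myotubes and 0 higher (limma with Benjamini-Hochberg adjustment), against 13.7% lower and 9.74% higher among all genes tested. No gene was higher at an unadjusted p under 0.05, and limma voom on recovered reads called 19 lower and 0 higher. The median log2 fold change was -0.77 over the 44 genes and -0.07 over all genes, and 41 of the 44 values were negative. In 16 genes every KO myotube sample lay below every WT myotube sample, against 10.8% of all genes. Among the called genes Gins1 had the largest difference (-2.90 ± 0.49, log2 fold change ± SE), followed by Fen1 (-2.19 ± 0.57), Uhrf1 (-1.80 ± 0.53), Pole (-1.67 ± 0.35) and Rrm2 (-1.64 ± 0.25). Without KO myotubes 2 the difference was -1.28 for Fen1 and -0.92 for Lig1, and without both shallow KO myotube samples it was -1.78 for Gins1, -0.87 for Fen1, -1.08 for Rrm2 and -0.68 for Gmnn. These calls held, and that of Fen1 was lost with only the samples compared (adjusted p = 0.0524). Over all samples the other roles were led by E2f2 (-1.61 ± 0.29), Mcm5 (-1.48 ± 0.21), Gmnn, which encodes geminin (-1.31 ± 0.28), and Rfc4 (-1.26 ± 0.26), and no RPA subunit was called, the largest value being 0.39 for Rpa1 (95% interval -0.09 to 0.87). Of the 20 genes, 19 were also called lower in KO myotubes against KO myoblasts, a comparison that shares the KO myotube samples, and the exception is E2f2. Without WT myotubes 2, the sample with the highest summed level, 19 genes were called lower, the call of Cdc6 being lost (-0.75, adjusted p = 0.0609). Without both shallow KO myotube samples 20 were called lower, and Uhrf1 (-0.52, adjusted p = 0.333), Pcna (-0.52, adjusted p = 0.0799) and Pola1 (-0.67, adjusted p = 0.0587) were lost. Myog was at 915 to 1347 in WT myotubes and at 487 to 940.1 in KO myotubes, which overlapped, and Myh3, an embryonic myosin heavy chain, was at 3199 to 5654 and at 1718 to 2207, which did not overlap. Ckm (1008 to 1491 in WT, 248 to 371 in KO) and Tnnt3 (1507 to 2786, 283 to 609) did not overlap either. Acta1, Myod1 and Des were also lower in every KO than in any WT myotube sample, whereas Actc1 and Myf5 overlapped. The part of these markers in the differences was not tested.

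**Figure D4:**
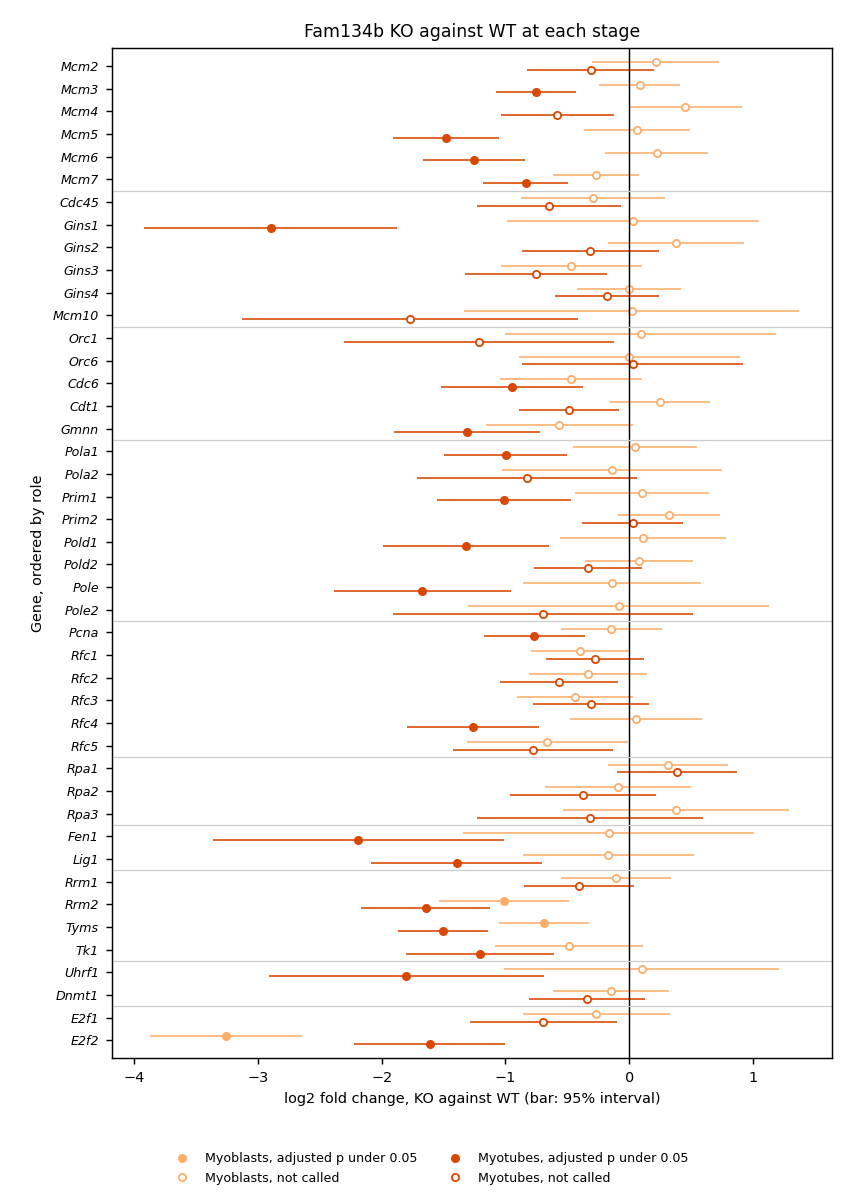
Log2 fold change of KO against WT (x axis) of each of the 44 genes (y axis, ordered by role) in myoblasts (light orange) and myotubes (dark orange), with 95% intervals. Filled points passed an adjusted p under 0.05: 3 genes in myoblasts and 20 in myotubes, all lower in KO.

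The MCM proteins form the ring that unwinds DNA ahead of the fork. Of the 6 genes, 5 were called lower in WT myotubes and 6 in KO myotubes, 4 were lower in KO than in WT myotubes, and none was called between KO and WT myoblasts. For this role and those below, the shares of all genes called lower were 9.16% in WT myotubes and 16.1% in KO myotubes. They were 13.7% in KO against WT myotubes and 8.5% in KO against WT myoblasts. Mcm7 was at 704, 613, 712 and 701 normalized counts in WT myoblasts 1 to 4 and at 243, 448, 309 and 259 in WT myotubes 1 to 4. In KO cells Mcm7 was at 517, 599, 578 and 572 in myoblasts and at 181, 168, 156 and 179.8 in myotubes. The stages did not overlap in either genotype. Mcm7 fell by 1.15 on the log2 scale in WT (SE 0.17, adjusted p = 3.67e-05) and fell by 1.72 in KO (SE 0.17, adjusted p = 7.33e-08), and the interaction was not called (-0.57, adjusted p = 0.206). Mcm5 was at 1158, 958, 1239.9 and 1099.7 in WT myoblasts and at 516, 815, 474 and 506 in WT myotubes, where sample 2 was the highest. It was at 1135, 1084, 1278 and 1148 in KO myoblasts and at 247, 153, 148 and 294 in KO myotubes. KO myotubes kept 18.1% of the myoblast level and WT myotubes 51.9%, and the changes differed between genotypes by -1.54 ± 0.29 (log2 ± SE, adjusted p = 0.00325). Mcm6 was at 504, 399, 430.3 and 425 in WT myoblasts and at 171, 336, 222 and 249.7 in WT myotubes. It was at 504, 525, 531 and 484 in KO myoblasts and at 122, 67.1, 119.7 and 97.9 in KO myotubes. All KO myotube samples lay below all WT myotube samples, while the myoblast samples of both genotypes overlapped, and the interaction was -1.48 ± 0.28 (adjusted p = 0.00332). Mcm3 was at 364, 378, 371 and 385 in WT myoblasts and at 189, 258, 175 and 189 in WT myotubes. It was at 382, 462, 354 and 398 in KO myoblasts and at 110.4, 124, 103 and 139.9 in KO myotubes. Its interaction was smaller (-0.84 ± 0.22, adjusted p = 0.0381) and was lost in 11 of the 16 fits with 1 sample left out, holding without WT myotubes 1 or 3, KO myoblasts 3 or KO myotubes 2 or 4, with adjusted p of up to 0.0763 (without WT myoblasts 3). Mcm4 was the gene of the ring with the smallest change in WT (-0.35 ± 0.22, adjusted p = 0.264), although its WT samples did not overlap, and it changed by -1.39 ± 0.22 in KO (adjusted p = 5.42e-05). Mcm2 changed by -0.84 and -1.37.

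**Figure D5:**
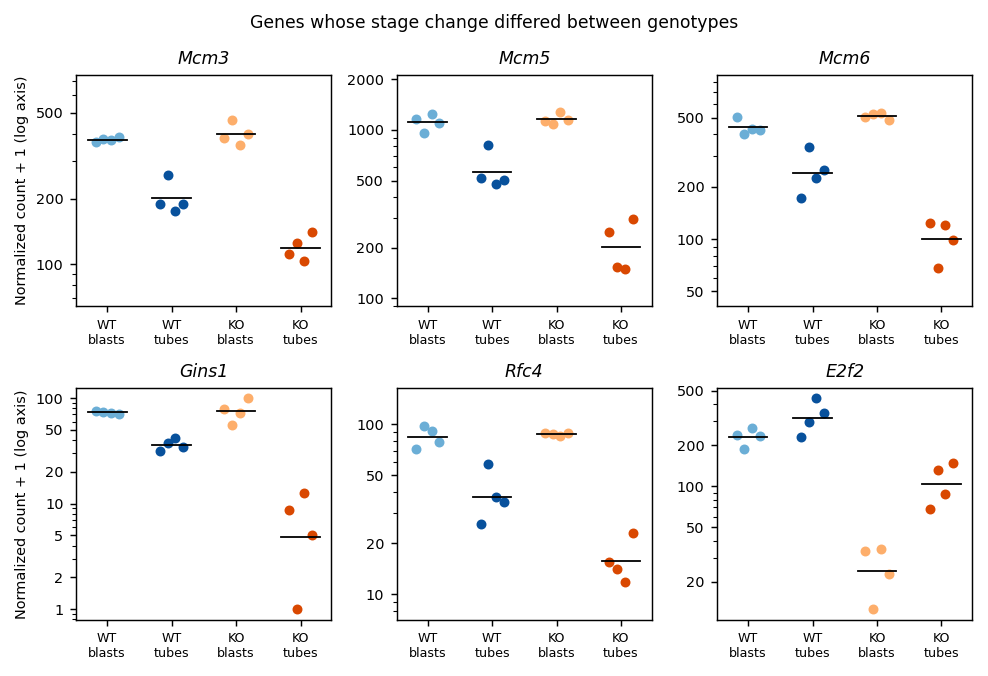
Normalized count plus 1 (y axis, log scale) of the 6 genes called by the interaction of genotype and stage, in each sample of the 4 groups (x axis, myoblasts and myotubes of WT and KO). Points are samples and lines are means on the log scale; Mcm3, Mcm5, Mcm6, Gins1 and Rfc4 start at overlapping levels in myoblasts and end lower in KO myotubes, and E2f2 is lowest in KO myoblasts.

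CDC45, the GINS complex and MCM10 activate the loaded ring. Of these 6 genes, 3 (Cdc45, Gins2 and Gins4) were called lower in WT myotubes and all 6 in KO myotubes. Cdc45 was at 68.3, 76.2, 63.0 and 82.0 normalized counts in WT myoblasts and at 25.9, 46.8, 30.7 and 21.8 in WT myotubes. It was at 64.7, 77.2, 51.2 and 45.9 in KO myoblasts and at 11.6, 17.5, 23.4 and 26.0 in KO myotubes. Stages did not overlap in either genotype, and KO and WT myotubes did overlap. The change of Cdc45 was -1.23 ± 0.28 in WT (log2 fold change ± SE, adjusted p = 0.0032) and -1.59 ± 0.28 in KO (adjusted p = 0.000174). Gins1 was at 74.7, 73.3, 72.1 and 69.5 in WT myoblasts and at 30.2, 36.9, 40.9 and 33.7 in WT myotubes, without overlap. In KO it was at 77.9, 54.8, 71.1 and 98.4 in myoblasts and at 7.75, 0, 11.7 and 4.00 in myotubes, the latter from 8, 0, 13 and 2 reads. Gins1 was thus under the floor of 3 reads in KO myotubes 2 and 4. KO myotubes kept 7.75% of the KO myoblast level, and WT myotubes 48.9% of the WT level, where the change of -1.02 ± 0.49 was not called (adjusted p = 0.142). This SE comes from the spread over all 4 groups, including KO myotubes, and not from the WT samples alone. The interaction was -2.93 ± 0.69 (adjusted p = 0.0195), which was lost without KO myoblasts 4 (adjusted p = 0.0521) and was -1.81, still called, without both shallow KO myotube samples. The other GINS genes changed less, by -1.59, -0.89 and -0.92 in KO for Gins2, Gins3 and Gins4. Mcm10 went from a range of 52.6 to 63.0 in WT myoblasts down to one of 8.36 to 52.2 in WT myotubes, and in KO from 53.8 to 61.7 down to 0 to 17.98.

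The licensing genes encode subunits of the origin recognition complex, the loaders CDC6 and CDT1, and geminin. Of these 5 genes, 3 (Orc6, Cdc6 and Gmnn) were called lower in WT myotubes and 5 in KO myotubes, and Cdc6 and Gmnn were lower in KO than in WT myotubes. Orc6 was at 28.6, 30.9, 36.0 and 34.8 normalized counts in WT myoblasts and at 15.5, 5.40, 13.0 and 21.8 in WT myotubes, where sample 2 was the lowest. In KO cells it was at 42.9, 32.4, 25.2 and 31.7 in myoblasts and at 15.5, 26.3, 15.3 and 4.00 in myotubes, and these overlapped. Its change in WT (-1.30 ± 0.43, adjusted p = 0.0333) was lost in 7 of the 8 fits with 1 sample left out and held without WT myotubes 4, with adjusted p of up to 0.104 (without WT myotubes 2). Cdc6, whose promoter is shown above, changed by -1.28 ± 0.28 in WT and -1.76 ± 0.28 in KO, where myotubes kept 42.3% and 28.2% of the myoblast level. Myoblast and myotube samples were separate in both genotypes. Gmnn changed by -0.95 and -1.69, and Cdt1, the factor geminin inhibits, by -0.54 in WT (not called, adjusted p = 0.0517) and -1.27 in KO. Orc1 stood at 6.94 to 13.3 in KO myoblasts and at 0 to 5.81 in KO myotubes, so its change in KO (-1.92 ± 0.53, and -1.02 with a pseudocount of 5) rests on few reads.

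The polymerase group holds the subunits of polymerase alpha and its primase, polymerase delta and polymerase epsilon. Of these 8 genes, 4 (Pola1, Prim1, Prim2 and Pold2) were called lower in WT myotubes, 7 in KO myotubes, and 4 (Pola1, Prim1, Pold1 and Pole) in KO against WT myotubes. Pole, the catalytic subunit of the leading-strand polymerase, was at 136, 118, 173 and 139.9 normalized counts in WT myoblasts and at 64.8, 125, 64.1 and 54.5 in WT myotubes. WT myotubes 2 overlapped with the myoblasts and stood apart from the other 3 WT myotube samples. In KO cells Pole was at 133, 134, 134 and 111 in myoblasts and at 29.0, 10.2, 15.3 and 52.0 in myotubes, without overlap. Its change in WT (-0.93 ± 0.35) was not called (adjusted p = 0.0558), its change in KO was -2.47 ± 0.35 (adjusted p = 1.2e-05), and the interaction was not called (-1.53, adjusted p = 0.0936). KO myotubes held 34.5% of the WT myotube level of Pole. Pold1, the catalytic subunit of polymerase delta, changed by -0.61 in WT (not called) and -2.04 in KO. Prim1, the catalytic subunit of primase, changed by -0.81 and -1.92, and Pola1 by -0.71 and -1.75. None of the 4 WT calls of this role held in every fit. Pola1, Prim2 and Pold2 were each lost in 6 of the 8 fits with 1 sample left out, with adjusted p of up to 0.11 (without WT myoblasts 2), 0.155 (without WT myotubes 4) and 0.119 (without WT myotubes 1). Pola1 was also lost with no filter (0.0516) and under total scaling (0.0537). The call of Prim1 was lost without WT myoblasts 1 or 4 or WT myotubes 1 or 4 (adjusted p up to 0.0975). Prim2 showed the smallest change of the group in KO (-0.87) and its difference between KO and WT myotubes was near 0 (0.03, 95% interval -0.38 to 0.44). Pole2 was at most 18.01 in any sample and was not called in any comparison.

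The clamp PCNA and the 5 subunits of its loader were called lower as a whole, 6 of 6 genes in WT and 6 of 6 in KO, and no sample overlapped between stages in either genotype. Pcna and Rfc4 were lower in KO than in WT myotubes. Rfc5 was at 285, 247, 314 and 322 normalized counts in WT myoblasts and at 54.4, 179.9, 113 and 104 in WT myotubes, with samples 1 and 2 the lowest and the highest. In KO cells it was at 154, 211, 168 and 206 in myoblasts and at 41.6, 43.8, 56.7 and 126 in myotubes. WT myotubes kept 38.7% and KO myotubes 36.3% of the myoblast level. The change of Rfc5 was -1.48 ± 0.31 in WT (adjusted p = 0.00174) and -1.59 ± 0.31 in KO (adjusted p = 0.000505), with an interaction of -0.11 (95% interval -1.03 to 0.80). Rfc4 was at 70.1, 97.4, 90.1 and 77.5 in WT myoblasts and at 25.04, 57.6, 36.2 and 33.7 in WT myotubes. It was at 87.5, 87.2, 84.2 and 87.6 in KO myoblasts and at 14.5, 13.1, 10.8 and 21.98 in KO myotubes. KO myoblast values lay within a narrow range, and KO myotubes lay below all WT myotube samples. Its interaction of -1.32 ± 0.36 (adjusted p = 0.0466) was lost in 13 of the 16 fits with 1 sample left out, holding without WT myotubes 1 or KO myotubes 2 or 4, with adjusted p of up to 0.102 (without WT myoblasts 1). Rfc1 and Rfc3 were among the 5 genes whose change was not more negative in KO, with -0.81 and -0.97 in WT and -0.69 and -0.84 in KO. Pcna changed by -0.67 in WT and -1.29 in KO. Its WT call was lost without WT myoblasts 4 (adjusted p = 0.0501) or WT myotubes 3 (adjusted p = 0.0763).

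RPA, the heterotrimer that covers single-stranded DNA, was called in 2 of its 3 subunits. Rpa1 and Rpa2 were called lower in both genotypes and Rpa3 in neither, and no subunit was called between KO and WT at either stage. Rpa1 was at 469.7, 547, 500.4 and 462 normalized counts in WT myoblasts and at 203, 344, 209 and 204 in WT myotubes, where sample 2 stood above the other 3. It was at 515, 907, 540.5 and 561 in KO myoblasts and at 266, 217, 302 and 499.6 in KO myotubes. Neither genotype showed overlap between stages, and sample 2 of KO myoblasts stood above its group. The change of Rpa1 was -1.08 ± 0.23 in WT (adjusted p = 0.00206) and -1.003 ± 0.23 in KO (adjusted p = 0.00222), and the interaction was 0.07 (95% interval -0.61 to 0.76). The WT call of Rpa2 was lost in 5 of the 8 fits with 1 sample left out (adjusted p up to 0.0924, without WT myotubes 1). Its WT stages overlapped, with WT myotubes 2 at 482 and WT myoblasts at 408 to 488. Rpa3 was at 8.10 to 47.2 over all samples. It changed by 0.21 ± 0.44 in WT (adjusted p = 0.775, with the sign turning under quantile normalization) and by -0.48 ± 0.44 in KO (adjusted p = 0.422). Fen1 and Lig1 complete the lagging strand by removing flaps and sealing nicks, and both were called lower in KO myotubes against KO myoblasts and against WT myotubes. Lig1 was at 264, 238, 307 and 249.5 in WT myoblasts and at 95.8, 184, 112 and 99.1 in WT myotubes. It was at 191, 329.6, 201 and 239 in KO myoblasts and at 47.4, 16.1, 71.1 and 69.9 in KO myotubes. The stages did not overlap in either genotype. Lig1 changed by -1.15 ± 0.33 in WT (adjusted p = 0.0165, lost without WT myoblasts 3 or WT myotubes 1 or 4, adjusted p up to 0.0578) and by -2.38 ± 0.33 in KO (adjusted p = 1.22e-05). Fen1 was at 45.0 to 72.9 in WT myoblasts and at 22.3 to 34.7 in WT myotubes, without overlap, and was not called in WT (-0.996, adjusted p = 0.216). In KO it was at 44.2 to 63.9 in myoblasts and at 0 to 15.5 in myotubes.

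The nucleotide genes encode both subunits of ribonucleotide reductase, thymidylate synthase and thymidine kinase, which make and salvage deoxynucleotides. Of these 4 genes, 3 (Rrm2, Tyms and Tk1) were called lower in WT myotubes, 4 in KO myotubes and 3 in KO against WT myotubes, and this was the one role apart from the E2F factors with calls between KO and WT myoblasts. Tk1 was at 918, 809, 1039 and 1044 normalized counts in WT myoblasts and at 303, 914, 283 and 374 in WT myotubes. WT myotubes 2 overlapped with the WT myoblasts and lay far above the other 3 myotube samples. In KO cells Tk1 was at 593, 734, 595 and 812 in myoblasts and at 233, 105, 193 and 216 in myotubes, without overlap. Its change was -1.19 ± 0.29 in WT (adjusted p = 0.00498) and -1.92 ± 0.29 in KO (adjusted p = 2.79e-05), and KO myotubes held 39.8% of the WT myotube level. Rrm2 was at 898, 738, 763 and 858 in WT myoblasts and at 318, 522, 388 and 405 in KO myoblasts, so KO myoblasts held 50.1% of the WT level without overlap. In myotubes it was at 653, 489, 362 and 526 in WT and at 258, 121, 212 and 93.9 in KO. Rrm2 was thus lower in KO at both stages, by -1.01 and -1.64. Its change in WT (-0.71 ± 0.25, adjusted p = 0.0467) held without WT myotubes 1 only, with adjusted p of up to 0.153 (without WT myotubes 3) in the other 7 fits. Tyms was lower in KO by -0.69 in myoblasts and -1.51 in myotubes, and changed by -0.99 in WT and -1.81 in KO. Rrm1, the large subunit of the reductase, changed least (-0.59 in WT, adjusted p = 0.0521, and -0.89 in KO).

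UHRF1 and DNMT1 copy DNA methylation onto new strands, and of their genes Uhrf1 was called lower in KO myotubes and Dnmt1 was not. Uhrf1 was at 36.0, 31.8, 35.0 and 23.2 normalized counts in WT myoblasts and at 19.9, 10.8, 13.0 and 7.93 in WT myotubes. In KO it was at 30.6, 45.7, 22.6 and 39.2 in myoblasts and at 6.78, 1.46, 9.90 and 0 in myotubes, the latter from 7, 1, 11 and 0 reads. The stages did not overlap in either genotype, and KO and WT myotubes overlapped. Its change was -1.28 ± 0.53 in WT (adjusted p = 0.0905, not called) and -3.18 ± 0.53 in KO (adjusted p = 0.000105). The difference of Uhrf1 between KO and WT myotubes (-1.80 ± 0.53, adjusted p = 0.0184) was lost without WT myotubes 1 (0.0551) or KO myotubes 4 (-1.16, adjusted p = 0.0593). It was also lost under quantile normalization (-0.98, adjusted p = 0.107), with sample weights (-0.95, adjusted p = 0.157), with limma voom (-1.60, adjusted p = 0.0667) and with only the samples compared (adjusted p = 0.114), and with a pseudocount of 5 it was -1.003. Dnmt1 changed by -0.37 ± 0.22 in WT (adjusted p = 0.247) and -0.56 ± 0.22 in KO (adjusted p = 0.0576), was not called in any comparison and overlapped between stages in both genotypes.

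E2f1 and E2f2 encode activators of S-phase genes, and in KO myotubes E2f1 was called lower and E2f2 higher than in KO myoblasts. E2f1 was at 245, 213, 205 and 224 normalized counts in WT myoblasts and at 80.3, 208, 109.7 and 100.1 in WT myotubes, where sample 2 overlapped with the myoblasts. In KO it was at 145, 236, 158 and 211 in myoblasts and at 67.8, 42.3, 71.1 and 128 in myotubes, without overlap. E2f1 changed by -0.92 ± 0.29 in WT (adjusted p = 0.0241) and by -1.35 ± 0.29 in KO (adjusted p = 0.00103). The WT call was lost without WT myoblasts 1 or 4 or WT myotubes 1, 3 or 4 (adjusted p up to 0.0997). E2f2 was at 238, 187, 264 and 233 in WT myoblasts and at 227, 293, 439 and 341 in WT myotubes, which overlapped. In KO it was at 32.4, 11.6, 33.8 and 21.7 in myoblasts and at 66.8, 129.9, 86.4 and 148 in myotubes. Every KO sample lay below every WT sample, at either stage, and every KO myotube sample lay above every KO myoblast sample. KO myoblasts held 10.8% of the WT myoblast level and KO myotubes 33.2% of the WT myotube level (exact permutation test, two-sided p = 0.0286 for each and for the change in KO, the smallest that 4 against 4 samples allow, and 0.114 for the change in WT). By limma, E2f2 was lower in KO by -3.26 ± 0.29 in myoblasts (adjusted p = 3.5e-08) and by -1.61 ± 0.29 in myotubes (adjusted p = 0.000442). It rose by 2.11 ± 0.29 in KO (adjusted p = 1.17e-05), and its change in WT was 0.46 ± 0.29 (adjusted p = 0.273). The interaction was 1.65 ± 0.42 (adjusted p = 0.0303) and was lost without WT myoblasts 1, 3 or 4, WT myotubes 1 or 4, KO myoblasts 4 or KO myotubes 4 (adjusted p up to 0.0688, without WT myoblasts 3), and without both shallow KO myotube samples (1.22, adjusted p = 0.116). E2f2 thus ran against the other genes of the set, being the one gene called higher in KO myotubes against KO myoblasts.

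Other genes of the same pathway were counted from 6 further lists written by role. The shares of all genes called lower were 9.16% in WT and 16.1% in KO, as above, and those called higher were 13.8% and 17.3%. Of 14 other origin and helicase factors, 4 were called lower in WT myotubes and 9 in KO myotubes, led by Dbf4, the partner of the CDC7 kinase, in WT (-1.28 ± 0.36, log2 fold change ± SE) and by Mtbp in KO (-2.91 ± 0.66). Of 15 fork and checkpoint factors, 3 and 7 were called lower, with Timeless, a fork protection factor, the largest in both (-1.56 ± 0.47 and -3.25 ± 0.47). In KO myotubes Mtbp and Timeless had means of 3.75 and 3.79 normalized counts, near the floor of 3 reads, so their KO values rest on few reads. Of 11 other polymerase subunits and flap enzymes, 4 and 6 were called lower, and 1 was called higher in each genotype, namely Pold4, a small subunit of polymerase delta, in WT (0.73 ± 0.18) and Top1, topoisomerase I, in KO (0.63 ± 0.16). Of 13 S-phase cyclins and E2F family genes, 5 and 6 were called lower, with Ccne2, cyclin E2, the largest in both (-1.94 ± 0.37 and -2.31 ± 0.37). Ccna2, cyclin A2, was called by the interaction with a more negative change in KO (-1.42 ± 0.25), as were 1.48% of all genes. Of 8 genes of chromatin assembly, 6 were called lower in each genotype, led by Hells, a chromatin remodeller (-1.52 ± 0.46 and -2.59 ± 0.46). Of 11 nucleotide synthesis genes, 4 and 8 were called lower. Between KO and WT myotubes, the 6 lists had 4, 5, 2, 6, 5 and 4 genes called lower in the same order, against 13.7% of all genes. The 2 of 11 other polymerase subunits and flap enzymes (18.2%) lie near that share. The largest were Chek1, a checkpoint kinase (-2.76 ± 0.49), and E2f8, a repressive E2F (-2.57 ± 0.35). Of the nucleotide genes 2 were called higher, against 9.74% of all genes, and Samhd1, a dNTP hydrolase, was the larger (0.66 ± 0.17). Samhd1 was also the one gene of these lists called higher in KO than in WT myoblasts (0.81 ± 0.17), where 7.26% of all genes were called higher and 8.5% lower. In that comparison Dbf4 (-1.06 ± 0.36), Tipin (-0.57 ± 0.19), Ccne2 (-1.16 ± 0.37) and Shmt1 (-0.71 ± 0.20) led the lists with genes called lower.

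Some of these counts can be affected by likeness to or overlap with other loci. Whether reads were gained or lost there was not tested. A share of the 31-base stretches in the last 500 bases of the transcripts was also found in another gene for Mcm7 (41.6%, mainly Gm5487), Pcna (24.6%, Pcna-ps2), Pole2 (18.5%), Rrm2 (16.8%), Uhrf1 (16.5%), Rpa3 (15.5%), Pola1 (12.4%) and Tyms (11.5%). Exons of a gene on the opposite strand covered 78.8% of the exonic bases of Fen1 (Gm10143), 67.3% of those of Gins2 (Gse1), 15.1% of those of Rfc2 (Lat2), 12.7% of those of Rfc4 (Eif4a2), 10.8% of those of Orc1 (Gm12743) and 10.7% of those of Rfc5 (Wsb2). Whether counting used the strand is not given in the sources used here, so the values of these genes are less certain than those of the others.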

How the data were processed

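mRNA of 16 C2C12 samples was sequenced. Per the submitters' processing notes and the methods of the study, base calls were converted with bcl2fastq, and reads were trimmed with bbduk, aligned with STAR 2.6.0a and counted per gene with HTSeq, with mm10 as the named build. The deposited values are log2(normalized count + 1), made by the authors. The scale of the normalization equals median-ratio size factors, so values were turned back into whole reads (100% within a tolerance of 0.01), which gave 1484750 to 3287461 reads per sample. The planned tests assumed normalized counts; since the table was already in log2, no further log was taken. No column of the authors' own comparisons was present.

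Genes that reached a normalized count of 10 in 4 or more samples were fitted with limma 3.58.1 (trend, R 4.3.3) over all 16 samples and 4 groups, with 5 comparisons and Benjamini-Hochberg adjustment over 10767 genes. The 4 groups shared a single estimate of the spread of each gene. A gene was called at an adjusted p under 0.05, and fold changes are on the log2(normalized count + 1) scale. Adding 1 shrinks changes of low genes, but a sample without a read can enlarge them. The change of Mcm10 in KO was -2.86 over all samples and -1.85 without KO myotubes 2, where it had no read. The procedure was tested on simulated data in which all groups had the same dispersion. The spread differs between these groups, so that test does not cover the effect of unequal spread on the calls. Precision is limited by reads per gene and by 4 samples a group.

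The genes and lists were chosen with earlier results of these data known. Values in each sample were given for the gene of each role with the largest change in WT and for genes called by the interaction; named beside them were the largest called gene per role and comparison and genes called against the majority. Rrm2 per sample, the E2f2 promoter and further genes of a role were added after values had been seen. Alternatives were other pseudocounts, filters and scalings, a replicate block, sample weights, limma voom, only the samples compared, a fold threshold and each sample left out. Leaving out both shallow KO myotube samples was chosen after seeing the data. Replicate numbers did not pair samples. Overlaps between genes came from GENCODE M21 and promoters from RefSeq (GRCm38.p6).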

Additional observations from a re-analysis of the deposited data

Results flagged for a closer look

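Dixon's test, which sets the gap of the highest or lowest of the 4 samples against the range of the group, flagged 9 of 68 groups of values. Chance gives about 1 in 20 for independent groups, but these groups share samples and are not independent. WT myotubes 2 accounted for 5 of these, always as the highest sample. Its summed level of the 44 genes was 8385, against 5360 to 5803 in the other 3 WT myotube samples. It had 125 normalized counts of Pole (others 54.5 to 64.8), 344 of Rpa1 (203 to 209), 914 of Tk1 (283 to 374) and 815 of Mcm5 (474 to 516).

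In the myoblasts, Mcm7 was at 613 in WT myoblasts 2 (others 701 to 712), Rpa1 at 907 in KO myoblasts 2 (515 to 561), Pole at 111 in KO myoblasts 4 (133 to 134) and Rfc4 at 84.2 in KO myoblasts 3 (87.2 to 87.6). The gap of Rfc4 is small (97 reads against 100 to 105) and was flagged because the other samples lay close together.

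The change from myoblasts to myotubes differed between genotypes, by a test of the difference itself (limma interaction), for Mcm3 (-0.84), Mcm5 (-1.54), Mcm6 (-1.48), Gins1 (-2.93), Rfc4 (-1.32) and E2f2 (1.65), on the log2 scale. The causes of these values were not tested.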

How the results depend on the processing

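No called gene changed sign under any alternative. Of the calls, 38 of 41 (KO stage change), 15 of 28 (WT stage change), 14 of 20 (KO against WT myotubes), 3 of 3 (KO against WT myoblasts) and 2 of 6 (interaction) held under every alternative tried other than the threshold on fold size. The WT stage count of 28 was 10 where a change of 1 or more on the log2 scale was also asked for, and ran from 17 (without WT myotubes 3) to 28 with 1 sample left out. It was 25 with no filter, 33 under quantile normalization, 34 with a pseudocount of 5 or limma voom, 35 with only the samples compared and 41, of which 1 higher, with sample weights. The count between myoblasts, 3, was 8 with only the samples compared and 9 with sample weights, and its median ran from -0.14 to 0.01 with 1 sample left out (0.0147 without WT myoblasts 3). The interaction count of 6 was 10 with sample weights, with a median of -0.38, and ran from 2 (without KO myoblasts 4) to 7 with 1 sample left out, at 3 without WT myoblasts 1, 3 or 4. The log2 fold change of Rpa3, KO myoblasts against WT myoblasts, ran from -0.0287 to 0.6162 with 1 sample left out, and the log2 fold change of Rpa3, WT myotubes against WT myoblasts, was -0.03 under quantile normalization. The cause was not tested.

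Same-numbered samples did not deviate together (mean correlation 0.0330, from -0.223 to 0.369, against -0.0108 for different numbers). With a replicate block the counts were 28, 41, 3, 20 and 5; Rfc4 lost its interaction call (adjusted p = 0.0537, limma) and Rrm2 its WT call (0.0524).

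Depth limits the genes with few reads in KO myotubes: 16 genes had under 10 reads in at least 1 sample, and in KO myotubes 4 a floor of 3 reads corresponds to 5.99 normalized counts.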

Other observations

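Genes of mitosis, a later stage of the cell cycle than S phase, were counted for comparison. The 20 genes include Mki67, a proliferation marker, Bub1, a spindle checkpoint kinase, and Top2a, also counted among the other polymerase subunits and flap enzymes. Of these, 16 were called lower in WT myotubes than in WT myoblasts and all 20 in KO, with median log2 fold changes of -1.09 and -2.16 (limma with Benjamini-Hochberg adjustment), against 9.16% and 16.1% of all genes called lower. The largest were Kif11, a spindle motor, in WT (-2.15 ± 0.56, SE) and Ndc80, a kinetochore protein, in KO (-3.58 ± 0.65). None was called between KO and WT myoblasts, where 1 had an unadjusted p under 0.05. Between KO and WT myotubes 16 were called lower, against 13.7% of all genes, led by Bub1 (-2.41 ± 0.62). The interaction was called with a more negative change in KO for 4, against 1.48% of all genes, led by Mki67 (-1.58 ± 0.32).

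Across the 44 replication genes, the changes from myoblasts to myotubes in WT and in KO had a Pearson r of 0.658 and a Spearman rho of 0.532, and without E2f2, over 43 genes, 0.490 and 0.499. These are descriptions across genes, which are not independent replicates.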
